A study of Mus musculus with 6 samples.

Results

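The syndecans (*Sdc1* to *Sdc4*) and the glypicans (*Gpc1* to *Gpc6*) were taken by gene symbol from a table of 23159 genes, and all 10 were present. Of these, 8 passed the filter on low counts and were tested, whereas *Gpc2* and *Gpc5* were not.

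Syndecans and glypicans are the cell surface proteoglycans that carry heparan sulphate chains. Syndecans cross the membrane and end in a short cytoplasmic tail that binds PDZ proteins, whereas glypicans are held on the outer surface by a lipid (GPI) anchor. Through the sulphated chains, both families bind and present secreted factors such as FGFs, hedgehogs, Wnts and BMPs, and in the growth plate heparan sulphate is known to shape the spread of Indian hedgehog and the response to FGFs.

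The libraries were made from growth plate cells of the distal femur and proximal tibia of mice at postnatal day 49 (P49). All mice, of a mixed background, were homozygous for Peli2(Col2a1-tTA), Col1a1(TRE-H2B-GFP), Col2a1-creER and R26R(tdTomato), so that both groups carried every transgene and came from the same dissections. CD45+ cells were gated out. The mice were given doxycycline from P21 to P49, which shuts off transcription of H2B-GFP so that dividing cells dilute the label, and tamoxifen at P46 and P47, which marks *Col2a1*-creER cells with tdTomato. Label-retaining chondrocytes (LRCs) were the H2B-GFP(high) tdTomato+ cells, and non-LRCs were the H2B-GFP(mid-low) tdTomato+ cells. Both the label and the Cre depend on *Col2a1* regulatory sequences in transgenes, the tTA mice derive from 1 transgenic line, and cells of several littermates were pooled in each experiment. Each of 3 independent experiments gave 1 LRC library from about 10000 cells and 1 non-LRC library from about 50000 cells, so the number of sorted cells and the group cannot be told apart.

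Total counts lay between 18943789 and 129559872 per library, and the smallest, that of LRCs in experiment 2, held 0 counts for 1731 of the 13728 genes tested, against 4 to 365 in the other libraries. The 8 markers of chondrocytes (among them *Col2a1*, *Acan* and *Sox9*) were detected in every library and summed to between 80447 and 223368 CPM (the CPM unit of edgeR, counts relative to the library total after TMM scaling) in LRCs and between 132614 and 229805 CPM in non-LRCs, a sum carried by *Col2a1*. Of these 8, 6 were lower in LRCs in all 3 experiments, 3 of them at an unadjusted p below 0.05 (median log2 fold change -0.45, edgeR), and *Matn3* (-0.83) and *Hapln1* (-0.74) did not overlap between the groups. Markers listed for other cell types also moved with the groups. The 7 superficial articular or synovial markers, none of them at 0 in any library, summed to between 1507 and 3092 CPM in LRCs and 168 and 235 CPM in non-LRCs, and 4 of them were higher in LRCs past the threshold used below. One of these, *Prg4*, is not confined to the articular surface, since the paper also detected its RNA in the resting zone, at a low level. The paper found growth plate chondrocytes to be essentially all of the tdTomato+ cells released from the epiphyses. The 6 perichondrial or fibroblast markers summed to between 1183 and 1627 CPM in LRCs and 655 and 818 CPM in non-LRCs, although *Postn* was at 0 in all LRC libraries. Sums of the 6 hypertrophic markers overlapped, at 817 to 1953 CPM in LRCs and 842 to 2478 CPM in non-LRCs, but 3 of the 6 were lower in LRCs in all 3 experiments at an unadjusted p below 0.05 (edgeR; *Ihh* -5.35, *Col10a1* -2.95 and *Alpl* -0.93 on the log2 scale; median of the list -0.75), and *Ihh* was at 0 in LRCs of experiments 1 and 2. *Ihh* passed the filter on low counts only with the non-LRC libraries, where it was higher, so its place in this count is a description and no support. Sums of the 6 osteoblast markers also overlapped, at 1375 to 3143 and 967 to 2160 CPM, with *Col1a1* higher in LRCs past the threshold (log2 fold change 2.38) and *Bglap* (-1.14) and *Sp7* (-1.25) lower at an unadjusted p below 0.05 (median -0.25, edgeR). Muscle, leukocyte or erythroid, endothelial, and neural or Schwann lists summed to at most 43.5, 23.9, 1.77 and 286 CPM in any library, and *Cdh5*, *Kdr*, *Emcn*, *Hba-a1* and *Nefl* were at 0 in all 6. Over all genes tested, 20.4% were higher and 26% lower in LRCs in all 3 experiments. At an unadjusted p below 0.05 (edgeR) these shares were 8.89% and 9.53%. All LRC libraries lay below all non-LRC libraries for 10.3% of genes, and 0.874% were higher in LRCs past the threshold. The part of these markers in the results below was not tested. In bulk libraries, fewer cells of a type and less RNA per cell cannot be told apart.

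Levels of different genes were compared per length, as TMM CPM divided by the kb of annotated exons. *Sdc4*, a syndecan that works with integrins at focal adhesions, was the most abundant member in every library, with a mean of 809 CPM per kb over the 6 libraries and a range of 538 to 939. *Sdc3*, the syndecan first studied in neurons and in the growing cartilage of limb buds, followed with a mean of 245 CPM per kb (83.7 to 353), and *Gpc1* with 179.8 (81.4 to 254). *Sdc2* had a mean of 98.4 CPM per kb (73.9 to 120.5), *Gpc6* 75.6 (42.5 to 130.2), *Sdc1* 38.9 (24.5 to 61.8) and *Gpc4* 20.6 (12.7 to 28.2). Each of these neighbours in the order overlapped with the next in range, except *Sdc4*, whose lowest library stood above the highest of *Sdc3*. *Gpc4* and *Gpc3* were also apart, since *Gpc3* reached at most 0.353 CPM per kb. *Gpc3* had a mean of 0.148 CPM per kb and *Gpc2* one of 0.0361. *Gpc5* had 0 counts in all 6 libraries, which in the deepest library allows up to 0.0257 CPM. Such limits cover counting error only, since amplified reads without molecular identifiers are not independent molecules. The order of the 10 genes did not change when the length of the longest coding transcript was used.

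The DNA before the start sites was read for members at very different levels. RefSeq windows of the 250 bases upstream of the start were found for *Sdc1*, *Sdc3*, *Sdc4*, *Gpc2*, *Gpc3*, *Gpc4* and *Gpc5*, and not for *Sdc2*, *Gpc1* and *Gpc6*. Those of *Sdc3*, *Gpc3* and *Gpc5* are shown (build GRCm38.p6, read 5′ to 3′ on the strand of the gene), for an abundant member, one near the limit of detection and one at 0 counts, with each GC box (GGGCGG, the Sp1 site, on either strand) in capitals. They lie at chr4:130792287-130792536 (*Sdc3*, + strand), chrX:52613975-52614224 (*Gpc3*, - strand) and chr14:115091965-115092214 (*Gpc5*, + strand).
Sdc3: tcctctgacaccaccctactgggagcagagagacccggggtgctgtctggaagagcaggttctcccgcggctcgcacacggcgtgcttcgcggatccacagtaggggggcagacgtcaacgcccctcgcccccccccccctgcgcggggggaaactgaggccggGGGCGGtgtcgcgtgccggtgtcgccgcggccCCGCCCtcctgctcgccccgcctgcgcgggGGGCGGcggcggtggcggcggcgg
Gpc3: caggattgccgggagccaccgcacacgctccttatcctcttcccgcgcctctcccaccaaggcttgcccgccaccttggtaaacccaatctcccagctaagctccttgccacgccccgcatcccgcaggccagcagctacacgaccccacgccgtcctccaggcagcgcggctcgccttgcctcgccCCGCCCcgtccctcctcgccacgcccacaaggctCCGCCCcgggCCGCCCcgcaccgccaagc
Gpc5: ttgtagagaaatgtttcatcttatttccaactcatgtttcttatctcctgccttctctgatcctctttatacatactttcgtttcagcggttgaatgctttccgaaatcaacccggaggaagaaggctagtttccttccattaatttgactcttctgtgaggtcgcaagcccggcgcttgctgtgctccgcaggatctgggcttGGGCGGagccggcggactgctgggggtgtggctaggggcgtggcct

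The *Sdc3* and *Gpc3* windows held 3 GC boxes each, and their GC content was 76.4% and 71.6%. The *Gpc5* window held 1, with 51.2% GC. Over the 7 members with a window, GC boxes numbered 1 to 4, while 32.7% of all 32851 RefSeq windows held at least 1. For *Sdc4*, which held 4, and *Gpc4*, the RefSeq start lay 699 and 329 bases inside the gene as annotated by GENCODE. Both of these windows thus lie within the annotated gene. The core letters of TCF/LEF sites (CTTTGA) and of SOX sites (AACAAT), on either strand, were in none of the 7 and in 13.8% and 9.42% of all windows. *Gpc3* and *Sdc3* had the same number of GC boxes at very different RNA levels, and a match only describes the letters in the window.

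LRCs and non-LRCs were compared with edgeR's quasi-likelihood test with the experiment as a block, and a differentially expressed gene (DEG) was one with at least a 2-fold difference and p below 0.05 after Benjamini-Hochberg adjustment. Of the 8 members tested, 1 was a DEG, *Gpc6*, which was higher in LRCs, against 1.21% of all genes tested (0.874% higher and 0.335% lower in LRCs). Without the fold threshold it was also the 1 member with an adjusted p below 0.05, against 1.28% of genes. No member was a DEG lower in LRCs under edgeR. At an unadjusted p below 0.05, 3 members were higher and 3 lower in LRCs, 6 of 8 against 18.4% of all genes (8.89% higher and 9.53% lower). In the direction of change, 6 members kept 1 sign in all 3 experiments (46.4% of genes), 3 higher and 3 lower in LRCs (20.4% and 26% of genes), and *Sdc4* and *Gpc4* were mixed. These counts include *Gpc3*, which passed the filter on low counts only through the non-LRC libraries, where it was higher. Requiring 10 or more counts in all libraries left *Gpc3* out. It gave 5 of 7 members at an unadjusted p below 0.05 (edgeR), against 25% of all genes. The median log2 fold change was 0.37 for the 8 members and -0.10 for all genes tested. The outcome depended on the method. DESeq2 with the same block gave 6 members an adjusted p below 0.05 (12.3% of the genes it adjusted), of which *Gpc6* and *Gpc3* were DEGs (5.81%), and limma-voom gave 5 (9.91% of genes). The plot of changes shows that the 2 families were each split in direction, with *Sdc1*, *Sdc2* and *Gpc6* on one side and *Sdc3*, *Gpc1* and *Gpc3* on the other.

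**Figure D1:**
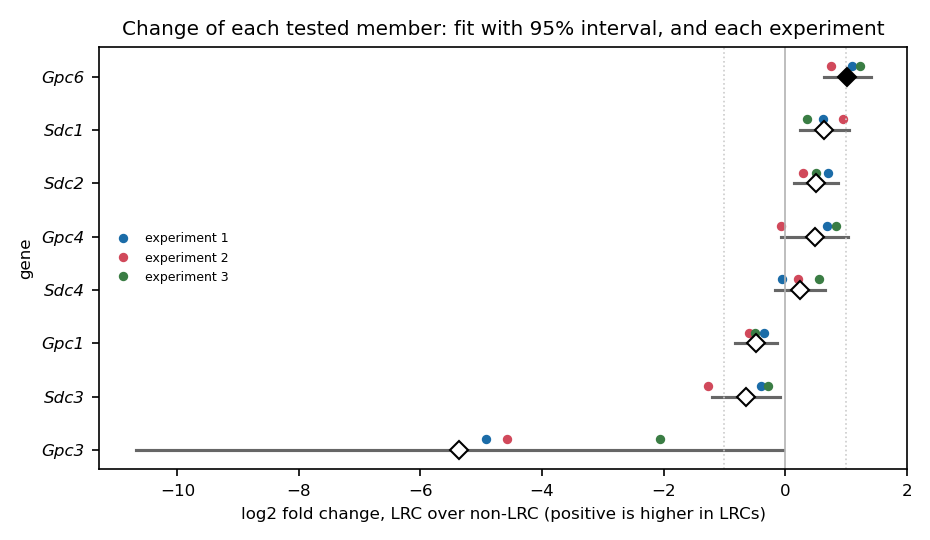
Fitted log2 fold change of the 8 tested members (diamonds, filled for the 1 DEG; bars, 95% intervals) and the log2 CPM difference of each experiment (coloured points), with positive values higher in LRCs and dotted lines at a 2-fold change. The interval of *Gpc6* (0.65 to 1.41) is above 0, and that of *Gpc3* is by far the widest (-10.7 to -0.04).

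*Gpc6* encodes a glypican whose loss in people causes omodysplasia, a short-limb dysplasia, and which is known to promote hedgehog signalling in growth plate cartilage. It lies on chromosome 14 (116925315 to 117976544, GRCm38, + strand). Its level was 477, 277 and 365 CPM in LRCs (experiments 1, 2 and 3) and 223, 164 and 156 CPM in the non-LRC libraries. Every LRC library was above every non-LRC library, as for 8.41% of genes tested. The means were 373 ± 100.2 and 181 ± 36.6 CPM (mean ± s.d., n=3 libraries each), and within experiments LRCs were higher by 1.10, 0.75 and 1.23 log2 units. The fit gave a fold of 2.04 (log2 fold change 1.03, standard error, SE, 0.16, adjusted p = 0.0489, edgeR), close to both thresholds. Without experiment 1 or 3 the log2 fold change was 0.99 or 0.95 and *Gpc6* was not a DEG (adjusted p = 0.189 and 0.0699, edgeR), whereas without experiment 2 it was 1.16 (adjusted p = 0.0149). Without the block it was also not called (adjusted p = 0.303, edgeR). The sums of the superficial and perichondrial markers given above were higher in the same 3 libraries. Of their genes, 5 of 7 and 4 of 6 were higher in LRCs in all 3 experiments, against 20.4% of all genes tested. The rest were mixed, or lower in the case of *Postn*. The part of these markers in the result for *Gpc6* was not tested.

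*Gpc1*, the most abundant glypican, encodes a widely expressed member that is known as a co-receptor for FGFs. It lies on chromosome 1 (92831645 to 92860779, + strand) and overlaps *Ankmy1* and a pair of antisense transcripts on the other strand. Neither the gene annotation nor the strand setting of the counting is given in the sources used here. Reads shared with these partners may have been counted for *Gpc1* or left out as ambiguous, which cannot be told apart. *Gpc1* had 837, 340.0 and 728 CPM in LRCs (experiments 1, 2 and 3) and 1060.1, 514 and 1026 CPM in the non-LRC libraries. Levels overlapped between the groups and were lowest in both libraries of experiment 2, but within each experiment the LRC library was lower, by 0.34, 0.60 and 0.49 on the log2 scale. The log2 fold change was -0.48 (SE 0.14, 95% interval -0.82 to -0.14, adjusted p = 0.155, edgeR). It passed an adjusted p of 0.05 under DESeq2 (0.0153) and limma-voom (0.0474).

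*Gpc4*, mutated in the Keipert syndrome of the face and fingers, had 74.7, 55.0 and 60.3 CPM in LRCs and 46.3, 57.9 and 33.7 CPM in non-LRCs. The groups overlapped, and experiment 2 showed almost no difference (-0.07 on the log2 scale, and 0.04 with CPM on total counts), against 0.69 and 0.84 in experiments 1 and 3. No call was made (log2 fold change 0.49, SE 0.22, 95% interval -0.06 to 1.04, adjusted p = 0.322, edgeR). Without experiment 2 the adjusted p was 0.0496 at a log2 fold change of 0.76, below the 2-fold threshold.

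*Gpc3*, the glypican that binds hedgehogs and whose loss causes the Simpson-Golabi-Behmel overgrowth syndrome, lies next to *Gpc4* on the X chromosome (52272426 to 52613950, - strand), with 107 kb and no other protein-coding gene between them. In experiments 1, 2 and 3 its reads numbered 0, 0 and 5 in LRCs, whereas non-LRCs gave 98, 28 and 29. All LRC libraries were below all non-LRC libraries (10.3% of genes tested), at 0, 0 and 0.116 CPM against 0.949, 0.733 and 0.584 CPM. *Gpc3* passed the filter on low counts only through the non-LRC libraries, so this lack of overlap is a description and no support. Set against the 3 counts that a count of 0 allows in the LRC library, the non-LRC level was 36.9-fold higher in experiment 1 and 5.11-fold higher in experiment 2. Both ratios leave out the error of the non-LRC counts, and amplified reads are not independent molecules, so they are not lower bounds. In experiment 3 *Gpc3* was 5.01-fold lower in LRCs, with a counting interval of 1.92 to 16.6. Its adjusted p did not pass in edgeR (log2 fold change -5.36, SE 2.18, adjusted p = 0.268), although its unadjusted value was below 0.05, and the fitted value depends on the prior count, since it was -3.78 with a prior count of 2. DESeq2 called it a DEG (adjusted p = 0.0451), and limma-voom did not (adjusted p = 0.0992). *Gpc3* overlaps a pair of antisense transcripts, and reads shared with them may likewise have been counted for *Gpc3* or left out as ambiguous.

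*Gpc2*, a glypican of the developing nervous system, was counted 12, 0 and 0 times in LRCs, and 37, 3 and 1 times in non-LRCs. It was not tested, and experiment 1 alone gave it more than 3 counts. *Gpc2* overlaps *Gm43720*, a protein-coding gene on the same strand, and only non-ambiguously mapped reads were counted. Whether reads of *Gpc2* were left out for this reason is not known. *Gpc5*, known from brain and kidney, lies 400.1 kb before *Gpc6* on chromosome 14 and had 0 counts in every library. Each pair of neighbours in the genome thus joined a member near or at 0 (*Gpc3*, *Gpc5*) with one that was well detected (*Gpc4*, *Gpc6*).

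**Figure D2:**
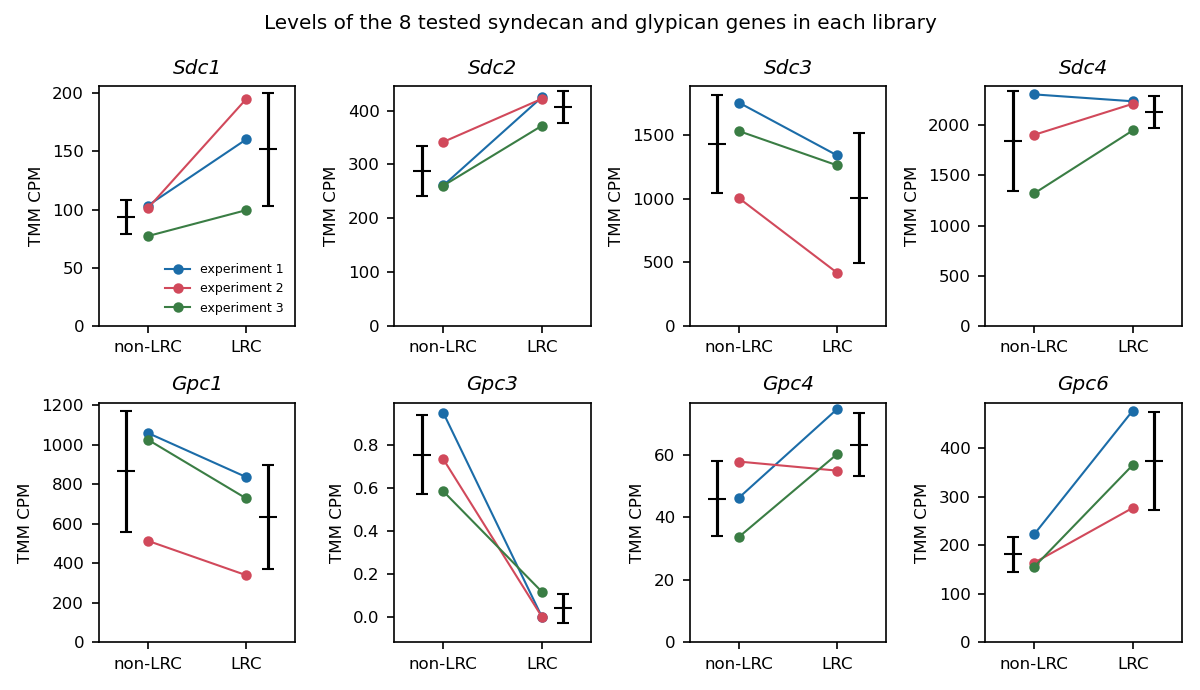
TMM CPM of the 8 tested members in each library (points joined within an experiment, linear axes that differ between panels), with the mean and s.d. of each group in black. *Gpc6*, *Sdc2* and *Gpc3* have no overlap between the groups, and the LRC library of experiment 2 is the lowest for *Sdc3* (416 CPM) and *Gpc1* (340.0 CPM).

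Among the syndecans, *Sdc1*, best known from epithelia and plasma cells, had 160.4, 195 and 99.5 CPM in LRCs (experiments 1, 2 and 3) and 103, 101 and 77.2 CPM in the non-LRC libraries. The LRC library was higher in each experiment (0.63, 0.95 and 0.37 on the log2 scale), while the LRC library of experiment 3 lay within the range of non-LRCs. The gene, on chromosome 12 (8771323 to 8793715, + strand), gave 0.65 as log2 fold change (SE 0.17, 95% interval 0.24 to 1.05, adjusted p = 0.120, edgeR). DESeq2 (adjusted p = 0.0116) and limma-voom (0.0284) placed it below 0.05.

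*Sdc2*, the main syndecan of mesenchymal cells, on chromosome 15 (32920723 to 33034935, + strand), had 425, 422 and 372 CPM in LRCs and 261, 342 and 261 CPM in non-LRCs. The LRC libraries all stood above the non-LRC libraries, and their spread was small (406 ± 29.8 against 288 ± 46.8 CPM, mean ± s.d., n=3 libraries each). The difference of 0.51 log2 units (SE 0.15, 95% interval 0.15 to 0.86) did not pass (adjusted p = 0.153, edgeR), and did so under DESeq2 (0.0155) and limma-voom (0.0422). Of the 8 members tested, 3 had libraries that did not overlap between the groups, against 18.7% of all genes. *Gpc3*, which passed the filter only through non-LRCs, is 1 of these 3.

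*Sdc3*, known in cartilage for its link to chondrocyte proliferation, lies on chromosome 4 (130792537 to 130826319, + strand) and overlaps a pair of antisense transcripts. It had 1338, 416 and 1261 CPM in LRCs and 1754, 1004 and 1530.2 CPM in non-LRCs. The LRC library of experiment 2, the shallowest, was far below the rest, and the groups overlapped. Within experiments the log2 difference of *Sdc3* was -0.39, -1.27 and -0.28, and the fit gave -0.64 (SE 0.23, 95% interval -1.20 to -0.09, adjusted p = 0.217, edgeR). Without experiment 2 the log2 fold change was -0.33 (adjusted p = 0.199, edgeR). With all experiments the adjusted p was 0.0416 in DESeq2 and 0.0480 in limma-voom.

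*Sdc4*, on chromosome 2 (164424247 to 164443887, - strand), had 2239, 2214 and 1949 CPM in LRCs and 2308, 1905 and 1322 CPM in non-LRCs. The groups overlapped, and experiments 1, 2 and 3 differed by -0.04, 0.22 and 0.56 log2 units. The log2 fold change of 0.24 had a 95% interval of -0.17 to 0.66 and no method called it (adjusted p = 0.502 in edgeR, 0.386 in DESeq2 and 0.337 in limma-voom).

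Summed per kb, glypicans reached 278 ± 92.0 CPM per kb in LRCs and 275 ± 74.9 in non-LRCs, and syndecans 1234 ± 102 and 1149 ± 230.3 (mean ± s.d., n=3 libraries each). The sums of the 2 families overlapped between the groups. Within the glypicans the makeup differed more than the sum. *Gpc6* made up 36.3, 42.5 and 33.6% of the glypican sum in LRCs (experiments 1, 2 and 3) and 18.3, 23.6 and 14.1% in the non-LRC libraries. *Gpc1* made up 55.8, 45.8 and 58.8% in LRCs and 76.3, 64.8 and 81.6% in non-LRCs. Neither share overlapped between the groups, and shares of 1 sum move against each other by construction. Of the syndecan sum, *Sdc4* held 70.6 ± 5.81% in LRCs and 64.7 ± 6.87% in non-LRCs, and *Sdc3* held 16.2 ± 7.82% and 25.4 ± 7.17%, with overlapping libraries for both. These shares are descriptions with no test.

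**Figure D3:**
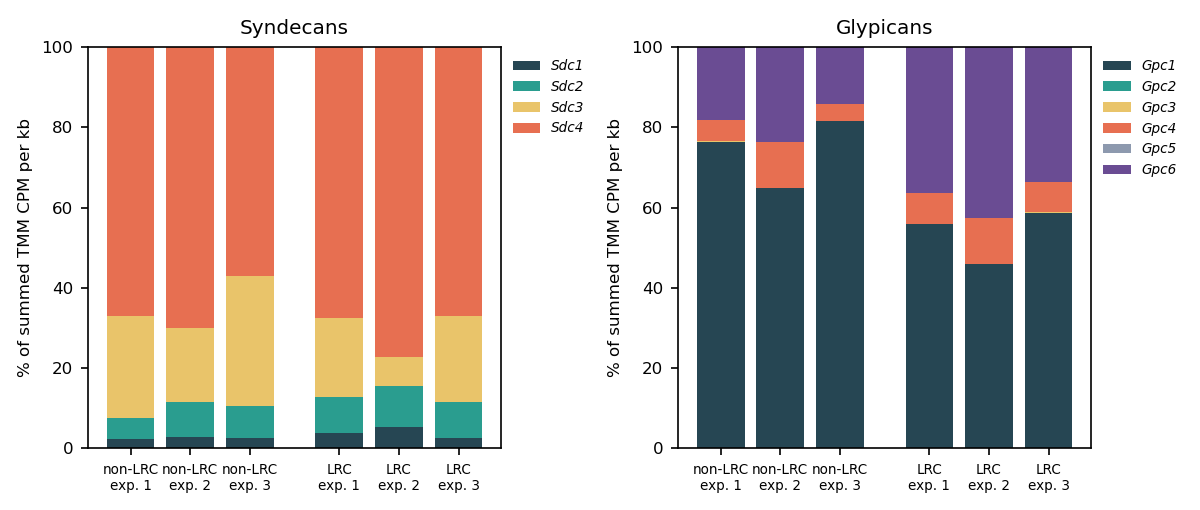
Share of each member in the summed TMM CPM per kb of its family, for each library (stacked bars, 0 to 100%, non-LRC then LRC). *Gpc6* holds 33.6 to 42.5% of the glypican sum in LRCs and 14.1 to 23.6% in non-LRCs, whereas *Sdc4* is the largest part of the syndecan sum in all 6 libraries.

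Across the 6 libraries, which share 3 experiments, log2 CPM of *Sdc3* and *Gpc1* had a Pearson r of 0.96, the highest of the 28 pairs, and both were at their lowest in the LRC library of experiment 2. *Sdc1* and *Sdc2* had r of 0.81, and *Gpc6* and *Gpc1* had r of -0.04. Among all genes tested, the 3 with the pattern most like *Gpc6* were *Nrp2* (r = 0.997), a neuropilin, *Flcn* (0.9935), encoding folliculin, and *Npr2* (0.992), the receptor for C-type natriuretic peptide. Those most like *Gpc1* were *Ttc37* (0.998), *Slc38a10* (0.995) and *Cbx5* (0.994), and those most like *Sdc4* were *Raver1* (0.990), *Eid2b* (0.988) and *Mtss1* (0.982). With 6 libraries and 13728 genes, values of this size are descriptions only.

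The other genes that build, change and use heparan sulphate were taken as 6 lists of 88 genes, of which 78 were tested. Of these, 7 were DEGs (8.97%), 6 higher and 1 lower in LRCs, beside 1.21% of all genes tested. The lists were chosen with earlier results of these data known. They hold *Notum* and *Rspo3*, which the paper had reported as enriched in LRCs and non-LRCs. The shares are therefore a description and no test of enrichment. All 7 kept their direction in every alternative, and none was a DEG without the block.

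Among the 14 genes of linker and chain synthesis, all tested, none was a DEG under edgeR, DESeq2 or limma-voom. At an unadjusted p below 0.05, 1 was higher and 2 were lower in LRCs, and the median of the list was -0.19 on the log2 scale. The largest changes were those of *Extl3* (0.91, adjusted p = 0.162, edgeR), an exostosin-like enzyme that starts the heparan sulphate chain, and *Slc35b2* (-0.85, adjusted p = 0.0765, edgeR), which carries the sulphate donor into the Golgi. Of 16 genes for sulphation and epimerization of the chain, 10 were tested and none was a DEG under any of the 3 tools, with 2 higher and none lower at an unadjusted p below 0.05 (median 0.29). *Hs3st1* (0.90) and *Hs6st2* (0.86), a 3-O- and a 6-O-sulphotransferase, had the largest values, with adjusted p = 0.431 and 0.788 (edgeR).

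Of the genes for trimming and shedding, 12 of 14 were tested, and 2 were DEGs, both higher in LRCs. *Sulf2*, an extracellular enzyme that removes 6-O-sulphates from the finished chains, had 345, 153 and 149 CPM in LRCs and 95.5, 74.7 and 38.8 CPM in non-LRCs. All LRC libraries were above all non-LRC libraries (log2 fold change 1.61, SE 0.22, adjusted p = 0.0391, edgeR). *Notum*, an esterase that inactivates Wnts and binds glypicans, was higher by 1.66 on the log2 scale (SE 0.14, adjusted p = 0.0174, edgeR). *Hpse*, heparanase, was named after its values were seen. Its reads numbered 57, 0 and 26 in LRCs, against 153, 75 and 287 in non-LRCs, and it was not called (log2 fold change -3.41, SE 1.30, adjusted p = 0.246, edgeR). *Hpse* passed the filter on low counts only with the non-LRC libraries, where it was higher. *Sulf2* was not a DEG without experiment 1 (1.49, adjusted p = 0.127, edgeR).

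Among the 11 partners of the syndecan tail, no gene was a DEG under edgeR, DESeq2 or limma-voom, and none had an unadjusted p below 0.05 in edgeR. *Sdcbp2* (-1.93, adjusted p = 0.496, edgeR), encoding syntenin-2, and *Tiam1* (-0.39, adjusted p = 0.585, edgeR), a Rac activator, had the largest values. The median was -0.03.

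Of the 10 other proteoglycans that carry or can carry heparan sulphate, 3 were DEGs, all higher in LRCs (median 0.97). *Tgfbr3*, betaglycan, a TGF-beta co-receptor, had 368, 153 and 327 CPM in LRCs and 147, 73.3 and 90.9 CPM in non-LRCs, with no overlap (log2 fold change 1.41, SE 0.19, adjusted p = 0.0392, edgeR). *Srgn*, serglycin of secretory granules, had 32.6, 153 and 51.7 CPM in LRCs and 11.0, 48.5 and 17.0 CPM in non-LRCs, where the groups overlapped, although LRCs were higher by 1.56 to 1.66 log2 units in each experiment (adjusted p = 0.0189, edgeR). The third was *Spock1*, a testican (log2 fold change 3.69, adjusted p = 0.0103, edgeR). Without experiment 1, *Tgfbr3* (adjusted p = 0.112) and *Srgn* (0.0616) were not DEGs in edgeR.

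Of 23 ligands and receptors that bind heparan sulphate or its core proteins, 21 were tested, 1 was a DEG higher and 1 a DEG lower in LRCs (median 0.37). *Bmp2*, a BMP ligand, had 124, 114 and 114 CPM in LRCs and 44.1, 53.9 and 38.3 CPM in non-LRCs, with no overlap (log2 fold change 1.39, SE 0.17, adjusted p = 0.0330, edgeR). *Rspo3*, an R-spondin known to bind syndecan-4, had 3.19, 4.97 and 8.17 CPM in LRCs and 16.9, 20.1 and 26.4 CPM in non-LRCs, again apart (log2 fold change -2.04, SE 0.29, adjusted p = 0.0440, edgeR). *Bmp2* was not a DEG without experiment 1 (adjusted p = 0.124, edgeR), nor *Rspo3* without experiment 1 or 3 (adjusted p = 0.189 and 0.0802, edgeR). The number of DEGs in this list was 5 under DESeq2 and 6 under limma-voom, tools that called 5.81% and 4.52% of all genes.

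**Figure D4:**
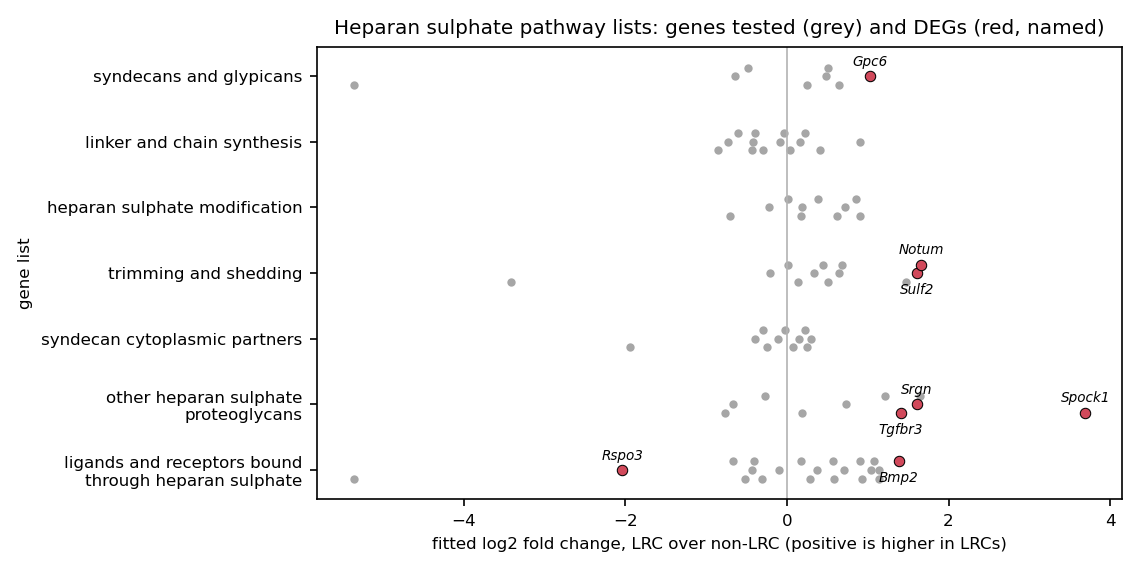
Fitted log2 fold change (x axis, positive higher in LRCs) of every tested gene of the members and of the 6 heparan sulphate lists, with DEGs in red and named and small vertical offsets only to separate points. The DEGs lie in 4 of the 7 rows, and *Rspo3* is the only one to the left of 0.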

How the data were processed

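RNA of LRCs and non-LRCs from 3 experiments was analysed in 6 libraries, grouped and numbered from the sample labels. Reads had been aligned with TopHat2 2.0.13 and Bowtie2 2.2.1 to mm10 (GRCm38) and non-ambiguously mapped reads counted with HTSeq, per the labels and the paper's methods. The gene annotation is not given in the sources used here. The authors deposited raw counts per gene, which were the input of all tests, and a normalized signal (the same counts over the DESeq2 size factor of each library), which served only for levels on another scale. Their table of rlog (log2 scale) values was not used.

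edgeR 4.0.16 in R 4.3.3 was run with filterByExpr (minimum count 10, minimum total 15), TMM factors and a quasi-likelihood fit blocked on the experiment, with Benjamini-Hochberg adjustment over 13728 genes. The block follows the paired model of the paper's methods, and deviations from the group means correlated within experiments 1, 2 and 3 (Pearson r of 0.197, 0.288 and 0.336 across genes). Unmatched pairs had r between -0.274 and 0.128, the highest for LRCs of experiment 1 with non-LRCs of experiment 3. Deviations from a mean of 3 libraries sum to 0, which pushes unmatched values down by construction. Standard errors are the log2 fold change divided by the square root of F, and 95% intervals use the t distribution of the fit. A prior count of 2 went into log2 CPM. No library was a copy of another (chi-square per gene at least 177). Alternatives were DESeq2 1.42.0, limma-voom (limma 3.58.1), other filters and scalings, no block, and each experiment left out. Exon lengths and positions came from GENCODE vM21 (GRCm38) and sequences from RefSeq (GRCm38.p6). Named genes were all members, those of each list with an adjusted p below 0.05 or, where there were none, the 2 with the largest change, and the 3 genes most like the most abundant syndecan, the most abundant glypican and any member that was a DEG. The members and lists were chosen with earlier results of these data known.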

Additional observations from a re-analysis of the deposited data

How the results depend on the processing

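All 8 tested members kept the direction of their log2 fold change in every alternative fit that could include them. Requiring 10 or more counts in all libraries left *Gpc3* out. For *Gpc4* the sign within experiment 2 turned with CPM on total counts. Without the replicate block no member was called by edgeR (0 DEGs and 0 with an adjusted p below 0.05, 3 of 8 at an unadjusted p below 0.05, against 9.39% of all genes), *Gpc6* kept a log2 fold change of 1.04, 0 pathway genes were DEGs, and 1 gene was a DEG over all genes. DESeq2 with the block gave 2 members as DEGs (*Gpc3* at -5.96 was added), 6 members with an adjusted p below 0.05, 12 pathway genes and 799 genes in all. limma-voom with the block gave 5 members with an adjusted p below 0.05, 12 pathway genes and 621 genes in all, and requiring 10 or more counts in all libraries gave 434 genes. When 1 experiment was left out, the number of members called lay between 0 and 1, and that of pathway DEGs between 2 and 11. All DEGs numbered between 35 (without experiment 1) and 555 (without experiment 2). The DEG share of all genes was 0.254%, 3.81% and 1.59% without experiments 1, 2 and 3. Members with an adjusted p below 0.05 numbered between 0 and 2, and the share of all genes at that threshold was not computed. The log2 fold change of *Gpc6* lay between 0.95 and 1.16. Both counts of members were 0 in edgeR without experiment 1 or without experiment 3, with 4 of 8 members at an unadjusted p below 0.05 each time, against 11.3% and 12.3% of all genes. The cause of these differences was not tested. Levels of the members moved by less than 1 s.d. under the other scalings. Depth limits *Gpc2*, *Gpc3* and *Gpc5*, and 0 reads in the shallowest library (LRCs, experiment 2) allow up to 0.143 CPM. The overlap of *Gpc2* with *Gm43720* may also limit its counts.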
